A study of Mus musculus with 4 samples.

Results

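The B-lineage cells of the mouse digit were described across 4 single-cell RNA libraries. A cell was a member if its 10x barcode had at least 500 genes, at least 1000 unique molecular identifiers (UMIs) and at most 10% mitochondrial UMIs, no UMI of Csf1r, fewer than 2 UMIs of Cd3e, Cd3d and Cd3g together, and at least 3 UMIs of Cd79a, Cd79b and Ms4a1 together. The members were thus selected on measured UMIs, and their levels of these 7 genes are no finding. The rule gave 430 members among 39266 barcodes that passed its cell filter (1.10%). The tissue was the mid-digit at the middle phalanx (P2) of wild-type FVB/NJ mice aged 8 weeks, taken unamputated or at 12, 17 or 28 days post-amputation (dpa), and amputation at this level is followed by fibrosis, per the labels. Each group was 1 library of live, propidium iodide-negative sorted cells from digits digested with trypsin and collagenase I, after lysis of red cells. The members numbered 202 in the unamputated library, 1 at 12 dpa, 139 at 17 dpa and 88 at 28 dpa. Expression was therefore compared only among the unamputated, 17 dpa and 28 dpa libraries.

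Since every group was a single library, no comparison could be tested and none has a replicate check. The ranges in parentheses after a share are 95% intervals by the Clopper-Pearson method, and those after a sum of UMIs are exact Poisson 95% intervals. Either kind covers counting error alone, and the second takes each UMI as independent, also where many come from 1 cell. The labels give pooled male and female animals for each library. Of the filtered barcodes, 79.2% of the unamputated, 60.0% of the 17 dpa and 49.6% of the 28 dpa library carried at least 2 Y-linked UMIs without Xist, and 1, 0 and 0 barcodes carried at least 2 Xist UMIs without Y-linked ones. At 12 dpa, 0 of 6942 barcodes were of the first kind and 55.4% of the second. Sex and time therefore cannot be told apart for the 12 dpa library. The filtered barcodes had medians of 12394, 9987, 8898 and 7114 UMIs in the order unamputated, 12, 17 and 28 dpa. Pairs of libraries shared 19 to 87 barcode sequences, and no member shared its barcode with a member of another library.

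B cells form in the bone marrow. In pro-B and pre-B cells the recombinase Rag1/Rag2 joins the immunoglobulin gene segments, the DNA polymerase encoded by Dntt adds bases at the joints, and a new heavy chain is tested in a complex with the surrogate light chain, made from Vpreb1 or Vpreb2 and Igll1. Cells that pass leave the marrow as naive B cells carrying IgM and IgD, present antigen on MHC class II molecules, and after activation can switch antibody class or become plasma cells that secrete antibody.

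Because the early-stage genes were used to divide the members into sets of cells, the sequences before the starts of 4 of these genes are shown first. They are from RefSeq (GRCm38.p6), 5′ to 3′ on the gene's own strand, with the hexamer CAGGTG, an E-box letter pattern of the kind bound by E proteins such as Tcf3, in capitals wherever it occurs on either strand. Vpreb1 is shown for chr16:16869256-16869505 (minus strand), a stretch that a noncoding Vpreb1 transcript of GENCODE M21 partly covers. Vpreb2 is shown for chr16:17980315-17980427 (plus strand), up to its GENCODE start. Igll1 is shown for chr16:16863986-16864235 (minus strand), and Rag1 for chr2:101649533-101649782 (minus strand).
Vpreb1: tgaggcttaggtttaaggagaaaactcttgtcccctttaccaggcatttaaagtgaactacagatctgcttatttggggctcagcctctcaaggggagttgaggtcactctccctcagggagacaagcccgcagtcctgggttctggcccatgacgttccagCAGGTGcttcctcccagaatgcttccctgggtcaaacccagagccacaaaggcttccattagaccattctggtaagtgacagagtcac
Vpreb2: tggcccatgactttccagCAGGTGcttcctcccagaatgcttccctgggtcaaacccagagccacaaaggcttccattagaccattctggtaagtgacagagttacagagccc
Igll1: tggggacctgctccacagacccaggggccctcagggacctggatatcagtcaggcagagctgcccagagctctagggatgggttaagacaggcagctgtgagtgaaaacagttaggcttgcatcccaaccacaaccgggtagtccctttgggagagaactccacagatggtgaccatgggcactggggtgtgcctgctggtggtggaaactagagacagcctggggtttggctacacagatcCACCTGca
Rag1: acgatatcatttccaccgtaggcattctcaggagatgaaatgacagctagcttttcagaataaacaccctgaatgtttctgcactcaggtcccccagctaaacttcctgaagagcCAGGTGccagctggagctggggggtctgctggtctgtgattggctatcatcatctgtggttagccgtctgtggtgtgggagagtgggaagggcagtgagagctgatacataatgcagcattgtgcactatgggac
Vpreb1 and Vpreb2 shared an identical stretch of 91 bases, which held the hexamer. The hexamer lay 88 bases before the RefSeq start of Vpreb1, 232 before that of Vpreb2, 8 before that of Igll1 and 135 before that of Rag1. All 6 early genes had a sequence in the RefSeq table. CAGGTG, searched on both strands in the 250 bases before each start, was present in 4 of the 6 and in 17.2% of 32851 promoters. CCCNNGGG, the core of the letters bound by Ebf1, was present in 1 of the 6 and in 11.8% of promoters. A match describes letters only, and nothing on binding follows from it.

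B-lineage cells were 1.69% (1.47 to 1.94) of filtered barcodes in the unamputated library, 0.0144% (0.000365 to 0.0802) in the 12 dpa, 1.60% (1.35 to 1.89) in the 17 dpa and 0.754% (0.605 to 0.928) in the 28 dpa library. The unamputated and 17 dpa intervals overlapped, and both lay above those of the other libraries. T cells, taken as barcodes with at least 2 UMIs of Cd3e, Cd3d and Cd3g, numbered 413, 161, 179 and 63 in the same order, or 3.45%, 2.32%, 2.06% and 0.540% of barcodes. The 12 dpa library thus held 161 T cells per B-lineage cell, where the unamputated, 17 dpa and 28 dpa libraries held 2.04, 1.29 and 0.716. At 28 dpa 88 B-lineage cells and 63 T cells were counted, with overlapping intervals of 0.605% to 0.928% and 0.415% to 0.690%. The cuts for the B-lineage cells and T cells differ, so their numbers do not rank the cell types. Of barcodes with a UMI of Ptprc, which encodes the leukocyte antigen CD45, members were 4.16%, 0% (0 of 1750, which allows up to 0.211%), 4.49% and 2.34%.

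**Figure D1:**
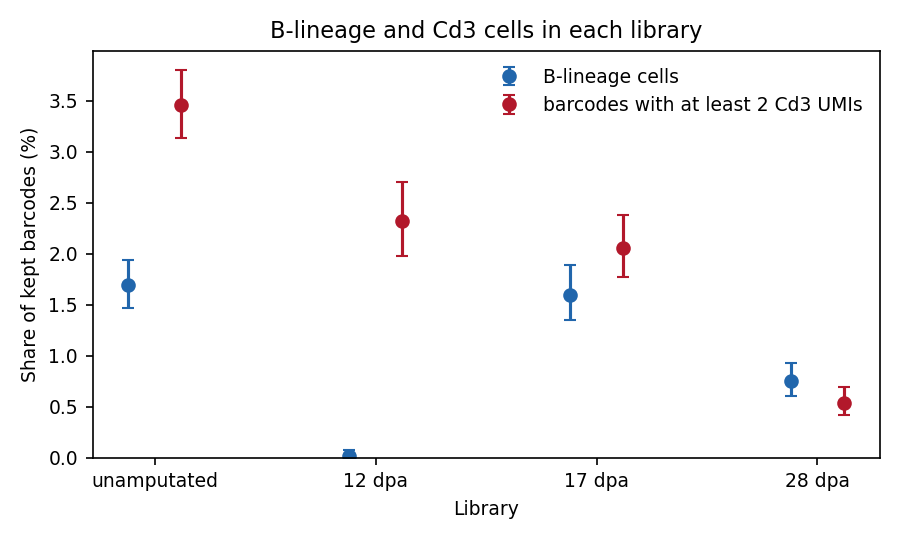
Share of filtered barcodes (y axis, percent) that were B-lineage cells (blue) or had at least 2 Cd3 UMIs (red) in each library (x axis), with exact 95% counting intervals. The B-lineage share is 0.0144% at 12 dpa, where the Cd3 share is 2.32%.

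Member counts depended on depth. The members had medians of 3708, 2617 and 2076 UMIs in the unamputated, 17 dpa and 28 dpa libraries, and medians of 9, 7 and 6.5 UMIs of the genes of the rule. With every barcode thinned to 2000 UMIs and shallower ones left out, B-lineage cells were 1.32%, 0%, 1.13% and 0.299% in the order unamputated, 12, 17 and 28 dpa. The order of the libraries was the same, and the 28 dpa share was lower still.

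The single member at 12 dpa had 10101 UMIs. It carried 3 UMIs of Cd79a, 2 of Cd79b and 3 of Ms4a1, with 10 of Igkc, the kappa light chain, 3 of Ighm and 24 of Cd74, the MHC class II invariant chain. It also carried 105 UMIs of Krt14 and 35 of Krt5, keratins of the basal epidermis, and 8 of Xist. The barcode therefore held transcripts of a B cell and of a keratinocyte together.

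The label was checked against 6 B-cell markers that the rule did not use, among them Pax5, Cd22, Blk, Fcrla and Bank1. At the edge of the rule, 38 of 43 members with a sum of exactly 3 had at least 3 UMIs of these markers (88.4%), as did 356 of 387 with a larger sum (92.0%). Just outside it, 25 of 41 barcodes with a sum of 2 did (61.0%), and so did 17 of 259 with a sum of 1 (6.56%), which were deeper, at a median of 10643 UMIs. Of 11359 barcodes outside the rule with at least 20 UMIs of Col1a1 and none of Ptprc, called Col1a1-high, 15 did (0.132%), at a median of 14010 UMIs. Pax5, the factor that commits cells to the B lineage, was detected in 86.6%, 78.4% and 62.5% of the unamputated, 17 dpa and 28 dpa members, at 685, 656 and 384 CPM (UMIs of the gene per 1000000 UMIs, each summed over members). In Col1a1-high barcodes, a class that should lack the gene, Pax5 was found in at most 0.174%. Ebf1 was left out of the check after its values were seen, since 89.9% to 92.1% of those barcodes carried it, and with it 81.9% of them had at least 3 UMIs of the markers. The rule lost 34 barcodes to its conditions on Csf1r and Cd3.

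Some members carried transcripts of other cell types. Those with at least 10 UMIs of fibroblast, keratinocyte or neutrophil markers, called mixed here, numbered 17, 11 and 9 in the unamputated, 17 dpa and 28 dpa libraries and held 24.2%, 28.5% and 34.7% of all member UMIs. The 6 fibroblast markers summed to 6278, 7419 and 6163 CPM in members, and to 410, 1044 and 1517 CPM without the mixed ones. The 5 keratinocyte markers summed to 1283, 1072 and 3225 CPM, and to 244, 204 and 747 CPM. The 9 neutrophil markers summed to 939, 92.4 and 0 CPM, and 76.9% of the unamputated value came from 1 member. The 4 endothelial markers, not used to call mixed members, summed to 391, 229 and 138 CPM, and to 489, 282 and 160 CPM without those members. At least 10 endothelial UMIs were present in 7, 0 and 0 members. The 9 macrophage and monocyte markers summed to 354, 181 and 238 CPM, and to 105, 233 and 319 CPM without mixed members. The T-cell markers summed to 16.2, 16.6 and 67.0 CPM, with Cd4 and Cd8a at 0 in members of each of these libraries. The rule limits the Cd3 genes in that list to 1 UMI per cell, so the sum is low in part by selection. Scrublet, a doublet caller, marked 23, 9 and 6 members (11.4%, 6.47% and 6.82%). The share it marked in a whole library was set in advance, at 0.8% per 1000 barcodes. The libraries held 16045, 10514 and 15253 barcodes. Values below are for all members unless a subset is named.

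The members fell into sets of unequal size by 6 early-stage genes, Vpreb1, Vpreb2, Igll1, Dntt, Rag1 and Rag2. At least 2 UMIs of this list were present in 18 of 202 unamputated members, 5 of 139 at 17 dpa and 1 of 88 at 28 dpa. Of these, 14 unamputated cells had 10 or more, the highest 86, and 4 had 2 to 9. All 5 cells at 17 dpa had between 31 and 79. A single UMI was present in 5 unamputated and 3 17 dpa members. They held 0 to 4 and 1 to 11 UMIs of MHC class II genes, where medians in members with no early UMI were 47 and 39. The sets were thus not cleanly separated at the threshold. The 28 dpa cell carried 2 UMIs of Dntt and 0 of the others. It also held 10 UMIs of Ms4a1 and 48 of MHC class II genes among 19222, was mixed, and was marked by Scrublet. After thinning to 2000 UMIs, early-list cells were 6.03% (3.15 to 10.3; 12 of 199) of unamputated members, 4.27% (1.40 to 9.69; 5 of 117) at 17 dpa and 0% at 28 dpa, where 0 of 48 allows up to 7.40%. The 3 intervals overlapped, and a difference in this share could not be tested. With Scrublet-marked barcodes removed, the unamputated share was 2.84%. Thinning left out 3, 22 and 40 members, and 0 Col1a1-high barcodes reached the threshold.

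**Figure D2:**
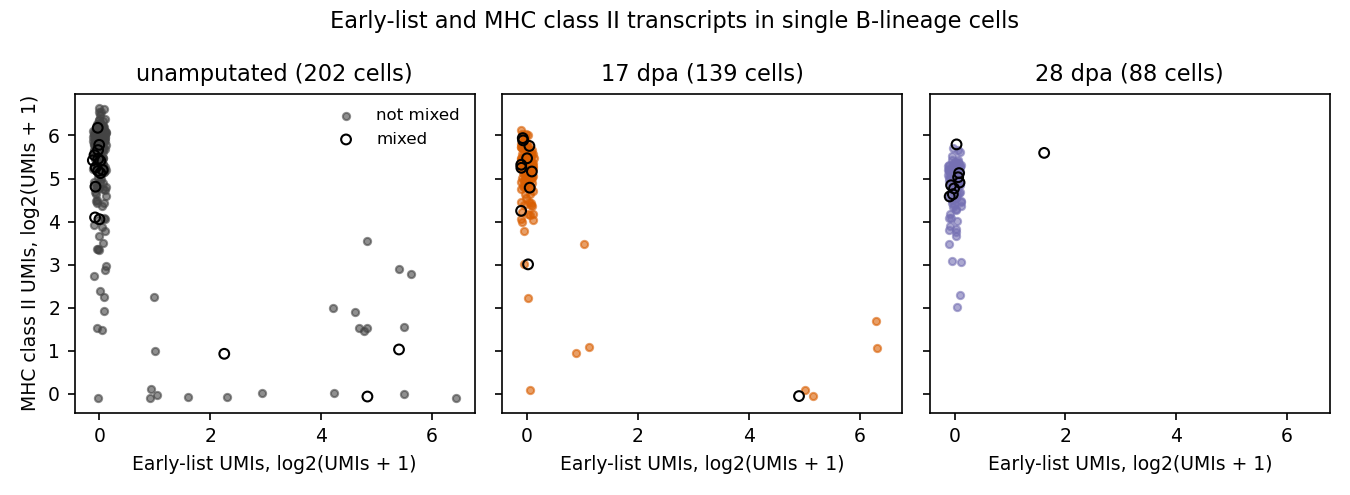
Early-list UMIs (x axis) against UMIs of 10 MHC class II genes (y axis) in single B-lineage cells, both as log2(UMIs + 1) with a small horizontal and vertical jitter, with 1 panel per library. Open circles are mixed members. Cells with 10 or more early-list UMIs lie at low MHC class II counts, and none is present at 28 dpa.

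The surrogate light chain genes carried most of the early signal. Vpreb1 (chromosome 16, 16868403 to 16870843 in GENCODE M21, GRCm38) was at 176 CPM (152 to 202) over all unamputated members, 248 CPM (208 to 293) at 17 dpa and 0 at 28 dpa. It was detected in 16 and 5 cells, respectively, and its paralog Vpreb2, whose reads may not be fully separable from it, in 12 and 4. Igll1 (chromosome 16, 16860671 to 16863985) was at 131 CPM (110 to 154) in 14 cells, 122 CPM (94.4 to 155) in 5 cells and 0. Rag1 (chromosome 2, 101638282 to 101649501) was at 50.5 CPM (38.2 to 65.6) in 17 cells and 14.8 CPM (6.39 to 29.1) in 6. The highest early cell of the unamputated library held 23 UMIs of Vpreb1, 7 of Vpreb2, 27 of Igll1, 19 of Dntt, 8 of Rag1 and 2 of Rag2 among 18270. The highest at 17 dpa held 35, 8, 21, 14, 0 and 1 among 9948. In 3 unamputated early cells, Rag1 was detected without any surrogate light chain UMI.

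What else set these cells apart was described, without a test, against members with no early UMI. The early cells were deep, with medians of 14674 UMIs against 3600 in the unamputated library and 9948 against 2610 at 17 dpa. They held 23.5% and 9.78% of all member UMIs. The cut of 2 unthinned early-list UMIs favours deep barcodes, and its part in this depth was not tested. Of the early cells, 12 of 18 and 2 of 5 were marked by Scrublet, and 3 and 1 were mixed. Lef1, a Wnt pathway factor of B-cell progenitors, was at 1998 CPM in unamputated early cells against 44.9, and at 1947 against 18.7 at 17 dpa. Il7r, the receptor of the cytokine that sustains pro-B cells, was at 400 against 31.5 CPM and at 548 CPM against 0. Vpreb3, which assists assembly of the pre-B-cell receptor, was at 691 against 136 CPM and at 1663 against 185.

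Early cells also carried cell-cycle transcripts. At least 2 UMIs of the 10 cycling genes were present in 14 of 18 unamputated and 2 of 5 17 dpa early cells, against 6 of 179 and 1 of 131 members with no early UMI. The list summed to 2167 and 2060 CPM in early cells, and to 95.8, 137 and 24.1 CPM in members with no early UMI of the unamputated, 17 dpa and 28 dpa libraries. In members neither early nor mixed the sums were 117, 38.3 and 34.2 CPM, and 46 UMIs of the first came from 1 cell. Of the 17 dpa early cells, 1 held 98 cycling UMIs and 3 held 0. The count per cell ranged from 0 to 159 UMIs in unamputated early cells, so some were without cycling transcripts. Over all members after thinning, shares with 2 cycling UMIs were 6.53% (3.52 to 10.9), 1.71% (0.208 to 6.04) and 0% (0 to 7.40). Col1a1-high barcodes gave 7.18%, 2.37% and 2.20%, so these shares alone were not above that class.

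In contrast, early cells were low in the products of mature B cells. The 10 MHC class II genes summed to 150 CPM in unamputated and 56.7 CPM in 17 dpa early cells, against 10152 and 10259 CPM in members with no early UMI. At 17 dpa 8 of the 10 had no UMI in the 5 early cells, where 3 UMIs correspond to 56.7 CPM. With zeros counted as 3 UMIs, 7 of the 10 were past 2-fold lower there. Bank1, an adaptor of antigen-receptor signalling, had 0 UMIs in early cells of both libraries, where the other members were at 2480 and 1994 CPM. Ighm, the IgM heavy chain, was detected in all 18 and 5 early cells, and Ighd in 10 and 1. Light chain transcripts of at least 3 UMIs were present in 4 of 18 and 0 of 5. Pax5 did not separate the sets past 2-fold, at 584 against 717 CPM in the unamputated and 888 against 633 CPM in the 17 dpa library.

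Most members were of the mature kind. After thinning, at least 2 UMIs of the 9 mature-list genes were present in 82.4% (76.4 to 87.4) of unamputated members, 85.5% (77.8 to 91.3) at 17 dpa and 81.3% (67.4 to 91.1) at 28 dpa, with 4.36%, 5.58% and 11.5% in Col1a1-high barcodes. Unthinned shares were 93.6%, 95.7% and 93.2%. Ighd was at 618, 906 and 808 CPM, and Fcer2a, the low-affinity IgE receptor CD23 of follicular B cells, at 149 CPM (89 cells), 178 CPM (56 cells) and 216 CPM (36 cells). Cr2, the complement receptor CD21, was at 112, 107 and 96.8 CPM. Both Ighm and Ighd were detected in 81.7%, 82.7% and 68.2% of members.

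The sum of the MHC class II genes lay in a narrow range in the mature members of the 3 libraries. Cd74 gave most of each sum, and other single genes such as H2-Ab1 and Ciita differed more. In members with no early UMI that were not mixed (165, 121 and 79 cells), called neither early nor mixed here, the MHC class II genes summed to 12929, 13404 and 12878 CPM, and 98.2%, 99.2% and 100% of cells had at least 3 such UMIs. Cd74 was at 7560, 7713 and 7751 CPM, the alpha chain gene H2-Aa at 2820, 2420 and 2236 CPM, and the beta chain gene H2-Ab1 at 1567, 2113 and 1973 CPM. Ciita, the transactivator of the class, was at 129, 168 and 74.1 CPM. The same sum in barcodes with at least 2 UMIs of Csf1r, a growth factor receptor of macrophages and monocytes, was 6523, 6979, 3995 and 1328 CPM at unamputated, 12, 17 and 28 dpa. T cells were between 58.7 and 409 CPM.

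**Figure D3:**
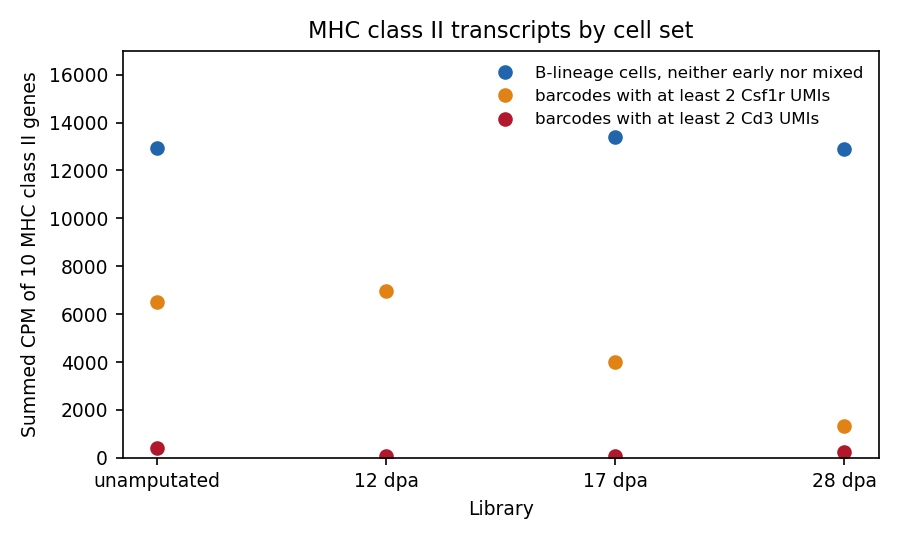
Summed CPM of 10 MHC class II genes (y axis) by library (x axis) in B-lineage cells that are neither early nor mixed (blue), in barcodes with at least 2 Csf1r UMIs (orange) and in barcodes with at least 2 Cd3 UMIs (red). The B-lineage values lie between 12878 and 13404, and the Csf1r values range from 6979 at 12 dpa to 1328 at 28 dpa.

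Several genes of plasma cells and of germinal centre cells had no UMI, and others of the same lists were detected. Jchain, which joins secreted IgM and IgA, Tnfrsf17 and Derl3 of plasma cells, Gcsam of germinal centres, and the switched heavy chains Ighg1 and Igha each had 0 UMIs in members of all 3 libraries. Taken as 3 UMIs over the members of a library, a count of 0 allows up to 2.71, 5.55 and 11.2 CPM. Switched heavy chain UMIs of any class were present in 29, 7 and 7 members, and 3 or more in 5, 0 and 1. Among all filtered barcodes of these libraries, none had 3 or more Jchain UMIs. Prdm1, the plasma cell factor, had 6, 0 and 1 UMIs. Sdc1, a proteoglycan of plasma cells that epithelia also carry, was at 39.7, 33.3 and 22.3 CPM from 18, 11 and 4 members, and at 11.6, 11.8 and 11.4 CPM in members neither early nor mixed. Slamf7, a receptor of plasma cells and other lymphocytes, was at 30.7, 40.7 and 7.45 CPM. After thinning, at least 2 UMIs of the plasma list were present in 0, 1 and 0 members, and in 3.62%, 1.77% and 1.80% of Col1a1-high barcodes. The rule selects on Ms4a1 and the Cd79 genes, the first of which plasma cells lose, so their count here is limited by it.

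Most members with at least 3 heavy chain UMIs (193, 131 and 70) were led by an unswitched heavy chain. By the heavy chain with most UMIs, 133 unamputated cells were IgM, 58 IgD and 2 switched. At 17 dpa these were 82, 49 and 0, and at 28 dpa 45, 24 and 1. Light chain UMIs numbered at least 3 in 176, 130 and 84 members. Of these, kappa chains led in 159, 114 and 72 and lambda chains in 13, 11 and 9, which is 7.39% (3.99 to 12.3), 8.46% (4.30 to 14.6) and 10.7% (5.02 to 19.4) lambda, and the few others had no leading class. Only 42, 34 and 28 cells held light chain UMIs of a single class, and the near-identical lambda constant genes cannot be separated from each other. Variable gene UMIs were present in 109, 63 and 28 members and came from 87, 57 and 34 different genes, of which the leading one took 9.43%, 7.69% and 9.09% of these UMIs (Igkv1-117, Igkv1-110 and Ighv2-2). The 3′ libraries read few variable regions, so clones were not called.

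Expression in all members was then compared between the amputated and unamputated libraries, as log2 ratios of CPM after adding 1 CPM, for genes that reached 50 CPM in either of the compared libraries. Past 2-fold served as a description. Genes named for the highest or lowest ratios that reached 50 CPM in only 1 of the libraries had their direction fixed by that minimum and by the ranking, and their values are descriptions. The minimum likewise fixed the direction of any list gene that reached it in only 1 of the compared libraries. At 17 dpa, 127 of 4140 genes were higher (3.07%) and 171 lower (4.13%), with a median of -0.13 over all genes. At 28 dpa, 231 of 4225 were higher (5.47%) and 473 lower (11.2%), with a median of -0.23. Scaling by the median of ratios removed these shifts and moved the share of higher genes among those past 2-fold from 42.6% to 55.7% at 17 dpa and from 32.8% to 54.0% at 28 dpa. Both comparisons share the unamputated library. With no early UMI, 3.95% were higher and 4% lower at 17 dpa, and 5.54% and 10.4% at 28 dpa. In members neither early nor mixed, 145 genes were higher (3.86%) and 197 lower (5.24%) at 17 dpa, and 315 higher (8.09%) and 482 lower (12.4%) at 28 dpa.

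At 28 dpa the genes of early B cells were among the lowest, values that rest on 18 early cells in the unamputated library. Against the unamputated members, Vpreb1 was at least 15.7-fold, Igll1 at least 11.7-fold and Rag1 at least 4.52-fold lower, with 0 UMIs counted as 3 over the 28 dpa members. Dntt was at 7.45 CPM (0.902 to 26.9) from its 2 UMIs in 1 cell. The unamputated value was 72.2 CPM (57.2 to 89.8) from 80 UMIs in 14 cells, a ratio of 9.69. These intervals count UMIs and leave out the small number of cells. The median over the 4 measured genes of the early list was -6.36, or -3.33 with zeros at that bound. These genes reached the 50 CPM minimum only through the unamputated library, so their direction was fixed by that choice. The median over the 8 measured genes of the other early B list was -2.70, and of these only Cd24a and Vpreb3 reached the minimum at 28 dpa as well, at 156 and 164 CPM against 343 and 290 CPM. Lef1 was at 508 CPM (467 to 552) in 39 unamputated cells and at 18.6 CPM (6.05 to 43.5) in 4 cells at 28 dpa, and Sox4, a factor of lymphoid progenitors, at 195 and 22.3 CPM. Myb, required in pro-B cells, was at 133 and 11.2 CPM, the latter from 3 UMIs, a ratio of 11.9. Without early cells and mixed members, Lef1 was at 56.2 and 28.5 CPM, Myb at 16.5 and 17.1 CPM, and 1 of 4 measured genes of the list was past 2-fold lower, against 12.4% of all genes, with a median of -0.51. Sox4 was the exception, at 74.4 and 11.4 CPM.

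Top2a, Pclaf, Lig1 and Erg were also named for the lowest ratios at 28 dpa and reached 50 CPM only in the unamputated library. Top2a, a topoisomerase of dividing cells, was at 247 CPM in 24 unamputated cells and at 3.72 CPM at 28 dpa. The ratio of 66.4 rests on 1 UMI at 28 dpa. It was at 44.6 and 5.70 CPM, from 27 UMIs and 1, in members neither early nor mixed. Pclaf, a partner of the replication clamp, was at 170.5 and 3.72 CPM, a ratio of 45.8 that also rests on 1 UMI. Lig1, the ligase that joins replicated DNA, had 71 UMIs and 0, at least 5.73-fold lower. Erg, a factor of progenitors and endothelium, was at 112 and 3.72 CPM, again 1 UMI. The endothelial markers in members were at 391 and 138 CPM, and their part in the Erg values was not tested. Without early cells and mixed members Erg was at 3.31 and 5.70 CPM, from 2 and 1 UMIs, which is the other direction.

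At 17 dpa early cells were present. Of the early list, 1 of 4 measured genes was past 2-fold lower (Rag1, log2 ratio -1.71), with 4.13% of all genes. Rag1 reached the 50 CPM minimum only through the unamputated library, so its direction was fixed by that choice. The median of -0.17 over the list took the other sign with doublets removed (1.76) and under the mean of each cell's own CPM (0.36). Of the other early B list, 3 of 8 measured genes were past 2-fold lower, with a median of -0.94, which was 0.13 in members with no early UMI and -0.50 in those neither early nor mixed. Lef1 was at 209 CPM at 17 dpa. Dtl, Hells, Atad5, Mms22l, Hmgn2, Hist1h2ae, Atl2 and Tmem108 were named for the lowest ratios and reached 50 CPM only in the unamputated library. Dtl, a subunit of a ubiquitin ligase that restrains replication licensing, was at 63.1 CPM in 20 unamputated cells. At 17 dpa it was at 3.70 CPM in 2 cells, a ratio of 17.1. Hells, a chromatin remodeller, was at 106 and 14.8 CPM. Atad5, a clamp unloader, had a log2 ratio of -2.56, Mms22l, a factor of replication fork repair, -1.92, the chromatin protein gene Hmgn2 -2.25 and the histone gene Hist1h2ae -1.98. The values of Hmgn2 and Hist1h2ae in the other barcodes of the library were -1.34 and -1.76. Hells was at 18.2 and 11.8 CPM without early and mixed members, a log2 ratio of -0.59. Atl2, an endoplasmic reticulum fusion protein, was at 88.4 CPM in 61 cells and 20.3 CPM in 11, and Tmem108 at 99.2 and 18.5 CPM, with log2 ratios of -1.95 and -2.29 in members neither early nor mixed and -0.42 and -0.11 in other barcodes.

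Few genes of mature B cells were past 2-fold higher. Cxcr5, the chemokine receptor that guides B cells into follicles, was the single member of the mature list past 2-fold in either library, where 3.07% of all genes at 17 dpa and 5.47% at 28 dpa were. It was at 55.9 CPM (42.9 to 71.7; 45 cells) unamputated, 139 CPM (109 to 174; 48 cells) at 17 dpa and 123 CPM (84.6 to 173; 18 cells) at 28 dpa. In members neither early nor mixed it was at 95.9, 203 and 177 CPM, which at 28 dpa is a log2 ratio of 0.88. Treml2, an immune cell surface receptor, was at 15.3 and 53.6 CPM at 17 dpa (log2 ratio 1.74), and Nfkbie, an inhibitor of NF-kappaB, at 18.9 and 53.6 CPM (1.45), both named for the highest ratios and just past the minimum at 17 dpa only. In the other barcodes the log2 ratios of these genes were -0.29 and -0.16. Dtx1, a Notch pathway gene of marginal zone B cells, was under the 50 CPM minimum in all members, at 18.9, 46.2 and 44.7 CPM in 19, 21 and 8 cells. In members neither early nor mixed it was at 26.4, 58.9 and 62.7 CPM from 16, 20 and 11 UMIs, so it reached the minimum only in the amputated libraries. Of the 8 genes in the B-1 and marginal zone list, 2 were measured in all members, with medians of 0.68 and 0.27 and 0 past 2-fold. In members neither early nor mixed 3 were, with medians of 1.13 at 17 dpa and 0.52 at 28 dpa. There, 2 were past 2-fold higher at 17 dpa (Cd9 and Dtx1) and 1 at 28 dpa (Dtx1), against 3.86% and 8.09% of all genes. The tetraspanin gene Cd9 was at 61.2, 183 and 74.1 CPM in 24, 9 and 11 of these cells, and at 928, 1041 and 1624 CPM in other barcodes. Mzb1, a chaperone of antibody assembly, was at 107, 174 and 154 CPM in 51, 40 and 20 of the members neither early nor mixed. Over all members its 28 dpa value lay below the unamputated one, as given under Other observations.

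Several other genes with high ratios also had positive ratios in other cells. Wdr89 was at 10.8 CPM (5.59 to 18.9) unamputated, 61.0 CPM (42.0 to 85.7) at 17 dpa and 74.5 CPM (45.5 to 115) at 28 dpa, log2 ratios of 2.39 and 2.67. In the other filtered barcodes its ratios were 1.33 and 1.37. Cdk8, a kinase of the Mediator complex, was at 389 and 1124 CPM at 17 dpa (1.53), with 1.13 in other barcodes, and at 529 CPM at 28 dpa (0.44). Rpl9-ps6, a ribosomal protein pseudogene that may take reads of its parent gene, had log2 ratios of 2.17 and 1.99, with 1.53 and 1.52 in other barcodes. Rps27rt, likewise a near copy of a ribosomal protein gene, had 1.34 and 1.39, with 1.12 and 1.00, and Gm15564 had 2.21 at 17 dpa with 1.21. At 28 dpa Snhg15, Mink1, Ciao2b and Tmem223 had log2 ratios of 1.88, 1.65, 1.54 and 1.48, each from 10 to 18 cells, with values between -0.16 and 0.58 in other barcodes. The rule named 16 genes in each comparison, and 3 of 29 were named in both.

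**Figure D4:**
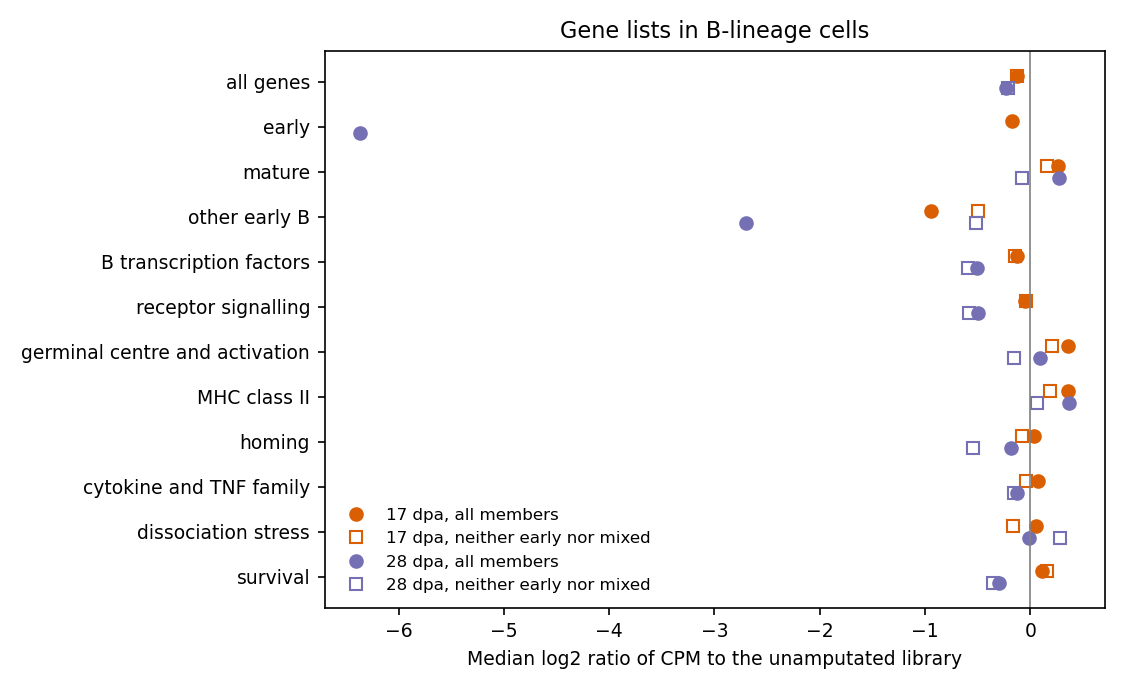
Median log2 ratio of CPM to the unamputated library (x axis) for each gene list with at least 3 genes measured and for all genes (y axis), at 17 dpa (orange) and 28 dpa (purple), in all members (filled circles) and in members neither early nor mixed (open squares). The early and other early B medians at 28 dpa lie at -6.36 and -2.70 in all members, where the first has 3 of 4 genes at 0 UMIs (-3.33 with zeros at 3 UMIs) and its genes were measured only through the unamputated library. The other early B median is at -0.51 without early and mixed members.

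The B-cell transcription factor list had a median of -0.50 over 16 genes at 28 dpa, where 4 lay above 0, against -0.23 over all genes. It was -0.59 in members neither early nor mixed, where 13 of 16 were below 0, and -0.32 under the median of ratios. Bach2, which holds B cells back from the plasma cell state, was at 1793, 1324 and 849 CPM (742 to 967), a log2 ratio of -1.08 at 28 dpa. Foxo1, which drives Rag1 and Rag2 in precursors and homing genes in mature cells, was at 346, 276 and 160 CPM (116 to 216), a log2 ratio of -1.11. These were the 2 of 16 past 2-fold lower, which is near the 11.2% of all genes. Both lay close to the 2-fold line. Scaling by the median of ratios moved the median over all genes from -0.23 to -0.00245, a shift larger than the margin of either gene. Pax5 was at 685, 656 and 384 CPM (313 to 465), and Ebf1 at 5711, 4313 and 2927 CPM. In other barcodes, the log2 ratio of Bach2 was -0.61 and that of Foxo1 -0.49 at 28 dpa. At 17 dpa the median of the list was -0.12, close to that of all genes, and 0 of 15 measured genes were past 2-fold, where 3.07% of all genes were higher and 4.13% lower.

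Transcripts of antigen-receptor signalling genes showed medians of the same size. The median over 18 genes was -0.05 at 17 dpa, where it turned to 0.06 under the median of ratios, and -0.49 at 28 dpa, where 15 of 18 were below 0, as were 2670 of all 4225 genes, and 0 were past 2-fold lower, against 11.2% of all genes. In members neither early nor mixed the 28 dpa median was -0.58 and 3 of 18 were past 2-fold lower, against 12.4% of all genes. These were Syk, the kinase that the receptor recruits, Bank1, and Prkcb, a kinase further down the pathway. Syk was at 1020, 637 and 416 CPM there, Bank1 at 3171, 2570 and 1471 CPM and Prkcb at 1380, 1264 and 587 CPM. Cd37, a tetraspanin of B cells, was at 574, 746 and 622 CPM. In these members at 28 dpa 4 of the 18 genes lay above 0 and 14 below, where 2384 of all 3892 genes lay below. The 3 genes past 2-fold lower were close to the share of all genes. Members at 28 dpa were also shallower, and the part of depth in these values was not tested.

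Of the remaining lists, the MHC class II median was 0.36 at 17 dpa and 0.37 at 28 dpa, with 9 and 7 of 10 genes above 0, against 1638 of 4140 and 1555 of 4225 of all genes. Of these 10 genes, 0 were past 2-fold in either, where 3.07% and 5.47% of all genes were higher and 4.13% and 11.2% lower. It was 0.19 and 0.06 in members neither early nor mixed, and -0.000824 at 28 dpa with only the early cells left out. Germinal centre and activation genes had medians of 0.36 and 0.10 over 7 measured genes, the latter -0.15 in members neither early nor mixed. Over all members Cd86, a costimulatory ligand, was at 176, 325 and 201 CPM and Cd83 at 336, 407 and 331 CPM. Bcl6, which directs the germinal centre, was the 1 gene past 2-fold lower at 28 dpa, at 63.1 and 29.8 CPM, where 11.2% of all genes were. It reached the minimum only through the unamputated library, so its direction was fixed by that choice. In members with no early UMI it was at 57.0 and 32.1 CPM, and 0 of 7 measured genes were past 2-fold lower. Homing genes had medians of 0.03 and -0.18 and cytokine and TNF family genes 0.07 and -0.13, all with a sign that depended on the processing. Survival genes had medians of 0.11, which was -0.07 in members with no early UMI, and -0.30. Bcl2l11, which encodes the death factor Bim, was at 114, 85.0 and 37.2 CPM, past 2-fold lower at 28 dpa. In that comparison it reached the minimum only through the unamputated library, so its direction was fixed by that choice. It was at 90.9, 97.3 and 51.3 CPM in members neither early nor mixed. Of the interferon genes 2 of 12 were measured at the minimum at each time, with medians of 0.05 and -0.50. At 17 dpa 0 were past 2-fold, and at 28 dpa 1 was lower, where 11.2% of all genes were. At 28 dpa 1 was measured in members with no early UMI (-1.08) and 1 in those neither early nor mixed (-0.87, under 2-fold).

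Genes of the stress that dissociation causes were read as a check. Their median was 0.05 at 17 dpa and -0.01 at 28 dpa, both with a sign that depended on the processing, with 2 of 11 past 2-fold lower at 17 dpa, the heat shock genes Hspa1a and Hspa1b, against 4.13% of all genes. At 28 dpa 1 of 11 was (Hspa1b, log2 ratio -1.01), against 11.2%. Hspa1a was at 366, 146 and 216 CPM and Hspa1b at 487, 174 and 242 CPM, and these near-identical genes may share reads. Fosb and Atf3 were past 2-fold higher at 28 dpa, against 5.47% of all genes, at 63.1 and 164 CPM and at 33.4 and 81.9 CPM. Atf3 reached the minimum only through the 28 dpa library, so its direction was fixed by that choice. With no early UMI it was at 44.9 and 84.2 CPM, under 2-fold, and 1 of 11 genes was higher, against 5.54% of all genes. In members neither early nor mixed 2 of 11 were, against 8.09%. The part of the stress genes in the other values was not tested.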

How the data were processed

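The deposited values were whole-number UMI counts per gene and barcode for 32285 genes in 4 libraries, and the matrix headers name Cell Ranger 7.1.0 as the software. The build was mm10, per the submitters' processing notes. Annotation and cell-calling settings are not given in the sources used here. Filtered barcodes totalled 39266.

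The members and the gene lists were chosen with earlier results of these data known. UMIs were summed over members and expressed as CPM of all member UMIs. Lists were scored in cells thinned to 2000 UMIs, and log2 ratios used a pseudocount of 1 CPM and a minimum of 50 CPM. Named genes were those of the lists and, per comparison, the 8 highest and 8 lowest ratios among genes in at least 5 cells, with no cell giving over 20% of the UMIs and a level no lower than in other barcodes. Genes of the rule, immunoglobulin, mitochondrial, haemoglobin and Y-linked genes, Xist and Tsix were left out of that choice. No doublets were removed; Scrublet (scanpy 1.11.5) was set to mark 0.8% of barcodes per 1000 in a library. Of the list genes, 1 (Mx1) was not matched to a symbol. The ratios were tested on simulated data. Coordinates are of GENCODE M21. Alternatives covered the rule, depth, doublets, scaling and minimums; those leaving out mixed members were added after seeing the data. Values of 3 genes are not reported here.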

Additional observations from a re-analysis of the deposited data

How the results depend on the processing

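No paired analysis was possible because each group held 1 library. The B-lineage shares of the unamputated, 17 dpa and 28 dpa libraries were 1.422%, 1.288% and 0.5395% with at least 5 UMIs of the rule's genes, 1.317%, 1.132% and 0.2992% after thinning, and 4.158%, 4.495% and 2.339% of Ptprc barcodes; a stricter cell filter gave 1.937% unamputated and 0.4096% at 28 dpa. The 12 dpa share was 0 after thinning, under the stricter filter, among Ptprc barcodes and without mixed members. The early-list share of unamputated members was 2.841% with doublets removed. Mature-list shares, in the order unamputated, 17 and 28 dpa, were 93.56%, 95.68% and 93.18% without thinning and 89.45%, 93.16% and 97.92% from 1 UMI. Those of unamputated and 17 dpa members were 65.35% and 68.35% at 1000 UMIs and 88.07% and 92.59% with doublets removed. From 3 UMIs they were 74.37% unamputated and 62.5% at 28 dpa, without mixed members 93.4% at 17 dpa and 94.87% at 28 dpa, and with the stricter marker sum 95% at 28 dpa. Plasma-list shares were 10.05%, 13.68% and 8.333% from 1 UMI and 6.931% and 5.036% without thinning in the unamputated and 17 dpa libraries. The 17 dpa plasma share was 0 at 1000 UMIs, from 3 UMIs, with the stricter marker sum, with doublets removed and without mixed members. Cycling shares were 15.58% unamputated and 9.402% at 17 dpa from 1 UMI, and 0 at 17 dpa with doublets removed.

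Genes past 2-fold numbered 375 higher and 473 lower at 17 dpa, and 597 and 1045 at 28 dpa, with a minimum of 20 CPM. With 100 CPM they were 60 and 75, and 90 and 225. At 28 dpa 396 were higher under the median of ratios and 357 with the stricter marker sum. Of the list genes, 1 was higher and 7 lower at 17 dpa and 3 higher and 19 lower at 28 dpa as reported, where 3.07%, 4.13%, 5.47% and 11.2% of all genes were. The number of list genes measured differs between settings, so these are counts only. The counts over all genes in each setting follow in parentheses. List genes higher at 17 dpa numbered 3 with 20 CPM (375 of 7526) and 2 under the mean of each cell's own CPM (86 of 3772). They numbered 4 with the stricter marker sum (126 of 4195) and 5 with doublets removed (168 of 3972). There were 2 without early cells (157 of 3971), 3 without mixed members (85 of 3897) and 4 without either (145 of 3761). Without early cells 4 were lower (159 of 3971). At 28 dpa, 5 were higher with 20 CPM (597 of 7512) and 1 under the mean of cells (205 of 3876). With the stricter marker sum 7 were (357 of 4335), and with doublets removed 7 (286 of 3952). Without early cells 1 was higher (224 of 4044), and without mixed members 6 (239 of 4052). Lower at 28 dpa were 29 with 20 CPM (1045 of 7512) and 11 with doublets removed (536 of 3952). Without early cells 11 were lower (420 of 4044), and without either 7 (482 of 3892). Erg at 28 dpa had a log2 ratio of 0.6385 without either. Of 32 named gene ratios, this 1 changed sign, and 8 were under 2-fold in some setting. The cause of these shifts was not tested. Small member numbers limit the 28 dpa values most, where thinning kept 48 cells.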

Other observations

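Ly6d, a surface protein of B-lineage commitment that also marks plasmacytoid dendritic cells, was at 755 CPM in unamputated members, 887 CPM at 17 dpa and 1292 CPM at 28 dpa. In barcodes with at least 2 Cd3 UMIs it was at 52.5, 16.1 and 484 CPM, and in those with at least 2 Csf1r UMIs at 77.8, 51.3 and 146 CPM. The keratinocyte markers in members were at 1283, 1072 and 3225 CPM, and their part in the Ly6d values was not tested. Ly6d held most of the summed plasmacytoid list, which was at 869, 937 and 1434 CPM, and at 837, 1057 and 1049 CPM without mixed members. Siglech, a receptor of plasmacytoid dendritic cells, was detected in 1, 0 and 1 members. Cd24a, a surface protein high in immature B cells, was at 343, 250 and 156 CPM. Over all members Mzb1, a chaperone of antibody assembly, was at 130, 202 and 108 CPM, and Ltb, a lymphotoxin subunit, at 170, 242 and 223 CPM. In members neither early nor mixed, Mzb1 was instead higher at 28 dpa than in the unamputated library. No test was possible for these values.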
